A study of Mus musculus with 4 samples.

Results

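Fkbp5, Tsc22d3, Per1, Zbtb16, Sgk1, Klf9, Ddit4 and Txnip are 8 genes known to be raised by glucocorticoid hormones. They were chosen by name, with earlier results of these data known. All 8 were found among the 16152 gene names that the deposited matrices list. Their levels are described in blood leukocytes of mice before and during cerulein-induced acute pancreatitis, with the question of which of them moved with Fkbp5 at 24 h and which did not. Peripheral blood mononuclear cells, purified on a Ficoll density gradient, were profiled with a droplet-based 5′ single-cell RNA kit in 4 libraries, 1 per time. Cerulein is an analogue of cholecystokinin, and repeated injections of it overstimulate the acinar cells of the pancreas.

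The 3 pancreatitis libraries were taken at 12 h, 24 h and 96 h after the first of 7 intraperitoneal injections of cerulein, written as 60 mg/kg in the series text. The control library was taken at 0 h, and the labels name no vehicle for it. All mice were wild-type C57BL/6J, aged 6 to 8 weeks. The library labelled 96 h is placed at 168 h in the series' design text, and its label is used here. The labels give neither the number of animals behind each library nor the hour of the day at collection. Since each time has a single library, no difference between libraries has a replicate check, and no test was made. Every interval below is an exact 95% interval that covers counting error only.

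Glucocorticoids of the adrenal cortex rise in blood during acute stress and inflammation and act through the glucocorticoid receptor. The receptor waits in the cytoplasm in a complex with Hsp90 and its co-chaperones, enters the nucleus with its hormone and binds palindromic response elements in DNA. The 8 genes stand for different arms of the response. Fkbp5 encodes a co-chaperone that lowers the receptor's affinity for hormone, a feedback brake. Tsc22d3 encodes GILZ, an anti-inflammatory leucine zipper protein. Per1, Zbtb16 and Klf9 encode nuclear factors, the first of them a component of the circadian clock. Sgk1 encodes a kinase that acts beside Akt. Ddit4 encodes an inhibitor of mTORC1 signalling, and Txnip an arrestin-like protein that binds thioredoxin and limits glucose uptake. Ddit4 and Txnip also answer to nutrient and stress signals, and Per1 to the clock.

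Of the 8 genes, 7 had promoter windows in RefSeq on mouse build GRCm38.p6, matched by symbol, with 15 windows in all. Each window holds the 250 bases before an annotated start. Exact matches were sought to the response element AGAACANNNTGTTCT, which reads the same on both strands, and to its single arm TGTTCT on either strand, which also lies inside the full element. The full element was present in 3 of all 32851 windows (0.00913%) and in 1 of the 15, a window of Sgk1. The arm was present in 16.1% of all windows and in 26.7% of the 15 (4 windows). All but 1 of these 4 windows, that of Tsc22d3, belong to Sgk1, and the window with the full element is among them. Sgk1 supplies 6 of the 15 windows, so this share is not a property of the genes as a set. The windows of Fkbp5 and of that Sgk1 start are shown because Fkbp5 is the gene that the others are set against and Sgk1 alone among the 7 genes with windows holds the full element. The element's arms are in capitals, and the element begins 189 bases before the start. That Sgk1 window holds 3 matches to the arm, and the 1 outside the element is left in lower case. The Fkbp5 window lies on the minus strand at chr17:28486150-28486399, and the Sgk1 window on the plus strand at chr10:21993640-21993889.
Fkbp5: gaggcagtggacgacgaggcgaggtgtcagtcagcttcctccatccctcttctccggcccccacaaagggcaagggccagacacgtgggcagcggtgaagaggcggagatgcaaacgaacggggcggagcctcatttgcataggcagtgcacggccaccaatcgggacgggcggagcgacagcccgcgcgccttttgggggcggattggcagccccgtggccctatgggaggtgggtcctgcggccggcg
Sgk1: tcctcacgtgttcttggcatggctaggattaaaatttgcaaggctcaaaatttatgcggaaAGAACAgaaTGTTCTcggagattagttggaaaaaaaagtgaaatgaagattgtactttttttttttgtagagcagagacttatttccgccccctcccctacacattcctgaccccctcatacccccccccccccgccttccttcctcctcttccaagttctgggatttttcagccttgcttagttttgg
Neither the element nor its arm occurs in the Fkbp5 window. A match describes letters in this window only, and a window without one says nothing of elements farther away.

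Cells were assigned to lineages by at least 2 distinct markers of the lineage (3 for neutrophils). Cells that also held 2 markers of another of T, B and monocyte, or 3 of neutrophil, were left out, but neutrophils could hold monocyte markers. NK and dendritic cell markers excluded no cell from the T, B or monocyte gates. The T gate also asked for a Cd3 gene, and the NK gate for none. Classical monocytes held at least 2 classical markers and more of these than of nonclassical ones. Nonclassical monocytes held a nonclassical marker and fewer than 2 classical ones. T-gated cells numbered 3033 at 0 h, 1978 at 12 h, 2238 at 24 h and 5514 at 96 h. B-gated cells numbered 2532, 2718, 2247 and 3337 in the same order, and NK-gated cells 371, 758, 428 and 518. Classical monocyte-gated cells numbered 456, 953, 1542 and 614, and nonclassical monocyte-gated cells 2583, 1522, 2040 and 1004. The control library held 7 neutrophil-gated and 22 dendritic cell-gated cells, under the minimum of 50, so these lineages were not compared. Ccr2, Ly6c2 and Chil3 are not among the gene names, and the classical gate rests on Fn1, Vcan, F13a1 and Ly6c. Ace and Treml4 are not among them either, and the nonclassical gate rests on Cx3cr1, Eno3 and Cd300e.

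The libraries held 14569, 11663, 12588 and 14560 deposited cells and 60515205 to 79516878 UMIs. In every lineage compared, the control library had the highest median mitochondrial share, for example 6.14% to 6.69% in T-gated cells of the pancreatitis libraries against 7.37% in those of the control. Median depth in classical monocyte-gated cells was 11071.5 UMIs per cell at 24 h, against 6999.5 in the control. Their part in the results was not tested beyond the settings given at the end. The gene names follow a rat style in part, with 28 that begin with RT1- and 0 that begin with H2-, while the labels give mouse. The barcode lists of the 12 h and 24 h libraries are identical (11663 barcodes), although the 24 h matrix has 12588 columns, and the control list has 4340 barcodes for 14569 columns. Without their suffix, 10 barcode sequences were shared by the control and 12 h lists, 13 by the control and 96 h lists and 51 by the 12 h and 96 h lists. No barcode was used, and 0 cells of 1 library had the same counts as a cell of another.

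Fkbp5 was higher than in the control in 5 of 5 lineages at 12 h and again at 24 h, and the 24 h library held the highest of the 4 levels in each of them. Levels are given as CPM, the UMIs of the gene scaled to a common total of the UMIs summed over the cells of a lineage in a library. In T-gated cells Fkbp5 stood at 27.9 CPM at 0 h, 52.7 at 12 h, 93.4 at 24 h and 33.8 at 96 h. In B-gated cells it stood at 11.4, 21.8, 35.3 and 15.6 CPM in the same order. In NK-gated cells the values were 48.3, 74.1, 161.6 and 73.8 CPM. The course was the same in these lymphoid lineages, upward over the first 24 h and back down by 96 h, with NK-gated cells highest at each time. In classical monocyte-gated cells Fkbp5 stood at 15.8, 45.6, 106.5 and 31.7 CPM. In nonclassical monocyte-gated cells it stood at 8.81, 29.6, 118.3 and 13.4 CPM. Nonclassical cells thus held the lowest control level of the 5 lineages and the level nearest to NK at 24 h.

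**Figure D1:**
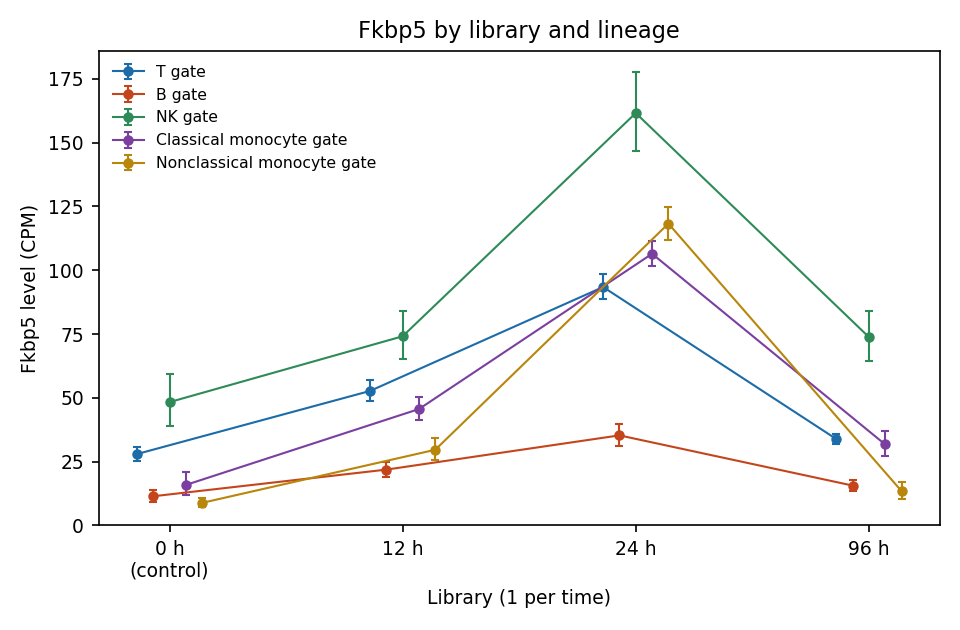
Fkbp5 level in CPM (vertical axis) in each library (horizontal axis, 1 library per time) for 5 marker-gated lineages, with exact Poisson 95% intervals that cover counting error only. Every line peaks at 24 h, from 35.3 CPM in B-gated cells to 161.6 CPM in NK-gated cells.

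The ratio of the 24 h library to the control was 13.4 in nonclassical monocyte-gated cells (interval 10.8 to 16.8, from 1314 UMIs at 24 h and 89 in the control). It was 6.72 in classical monocyte-gated cells (interval 5.09 to 9.06, from 1800 and 51 UMIs). The lymphoid ratios were smaller and close to each other. They were 3.34 in T-gated cells (3.0 to 3.73), 3.09 in B-gated cells (2.44 to 3.96) and 3.35 in NK-gated cells (2.66 to 4.25), and these 3 intervals overlap. Both monocyte intervals lie above all 3 lymphoid intervals, and they do not overlap each other.

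Among all genes with at least 50 UMIs over the pair of libraries, Fkbp5 had the 9th largest ratio of 8462 in nonclassical monocyte-gated cells and the 30th of 8138 in classical monocyte-gated cells. It ranked 24th of 8918 genes in T-gated cells, 24th of 8313 in B-gated cells and 12th of 6061 in NK-gated cells. Fkbp5 was chosen with earlier results of these data known, so its ranks are a description only. At 12 h the ratios were lower, 1.89 in T-gated, 1.92 in B-gated, 1.53 in NK-gated, 2.88 in classical and 3.36 in nonclassical monocyte-gated cells. At 96 h they were 1.21, 1.37, 1.53, 2.0 and 1.52 in the same order of lineages, and each interval still lay above 1. Fkbp5 had come most of the way back by 96 h. Its rank among all genes then ran from 864th of 9564 in T-gated to 45th of 6897 in classical monocyte-gated cells. With 1 library per time, the remaining difference cannot be told from variation between libraries.

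At 24 h the order of levels was NK (161.6 CPM, interval 146.8 to 177.5), nonclassical monocyte (112.0 to 124.9), classical monocyte (101.6 to 111.5), T (88.6 to 98.4) and B (31.2 to 39.7). No neighbouring intervals overlap, and the nonclassical and classical ones nearly touch. In the control library the order was NK, T, classical monocyte, B and nonclassical monocyte, and the intervals of the last 3 overlap with a neighbour. Neutrophil-gated cells, present mainly in the 12 h and 24 h libraries, held 39.0 CPM at 12 h (18 UMIs in 75 cells) and 103 CPM at 24 h (34 UMIs in 86 cells, interval 71.6 to 145). No control value can be set against them because the 7 control cells are too few.

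More cells held a Fkbp5 UMI at 24 h, in each lineage, and this remained after every cell was thinned to 1500 UMIs to set the depths equal. In nonclassical monocyte-gated cells the thinned share was 16.1% at 24 h against 1.37% in the control, and in classical monocyte-gated cells 15.1% against 1.97%. T-gated cells had 12.5% at 24 h against 3.43% in the control, NK-gated cells 18.4% against 8.13%, and B-gated cells 4.76% against 1.4%. Without thinning, the shares at 24 h were 42.1% in T, 10.9% in B, 57.2% in NK, 60.4% in classical and 42.8% in nonclassical monocyte-gated cells. The unthinned control shares were 12.5%, 3.28%, 18.9%, 10.5% and 3.29% in that order of lineages. Thinning left out at most 30 cells of a lineage in a library.

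**Figure D2:**
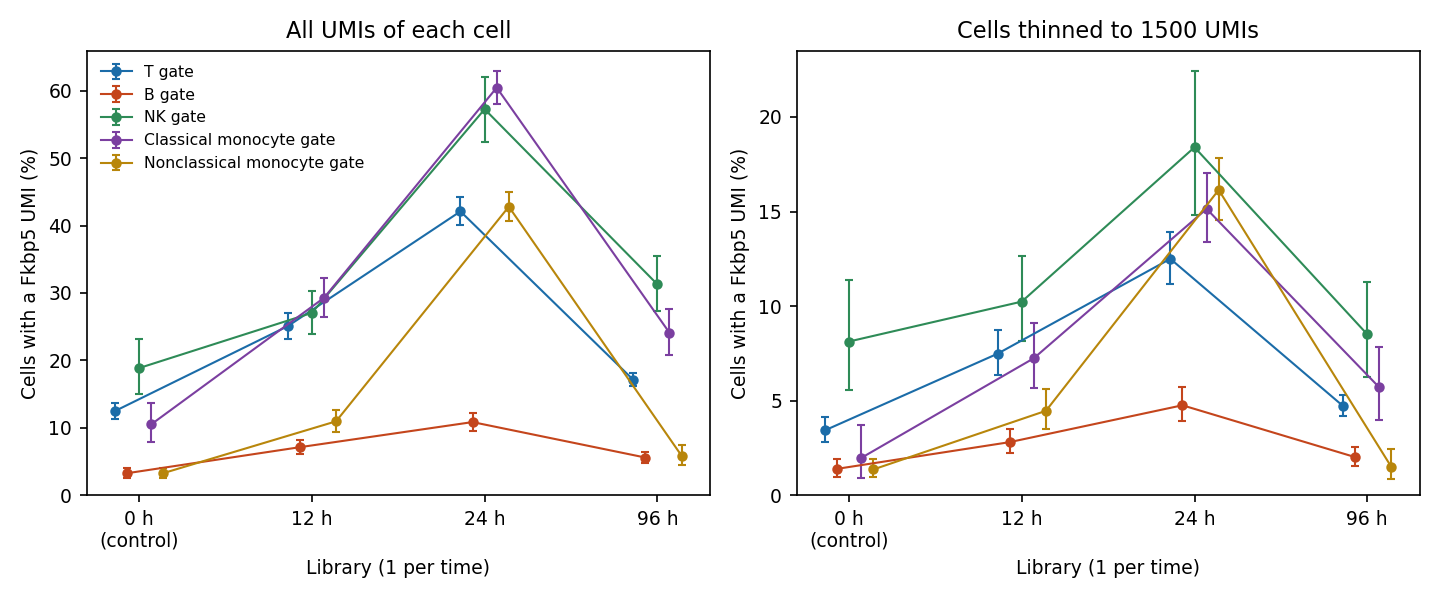
Share of cells with at least 1 Fkbp5 UMI (vertical axis, percent) by library (horizontal axis) for 5 marker-gated lineages, with all UMIs of each cell on the left and after thinning to 1500 UMIs on the right. Points are shares with exact binomial 95% intervals, and the thinned share at 24 h runs from 4.76% in B-gated to 18.4% in NK-gated cells.

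Free RNA in droplets puts UMIs of 1 cell type into others, so the levels were set beside genes of known lineage. At 24 h Lyz2, the lysozyme gene of myeloid cells, stood in B-gated cells at 2.06% of its level in classical monocyte-gated cells and in T-gated cells at 1.12%. The T cell gene Cd3e stood in B-gated cells at 0.67% of its level in T-gated cells. Fkbp5 in B-gated cells, its lowest lineage at 24 h, stood at 21.8% of its level in NK-gated cells, and at 23.6% in the control. The neutrophil and monocyte gene S100a8 was the exception to these low shares, since B-gated cells held it at 28.8% of the classical monocyte level at 24 h. The share was 25.1% in NK-gated, 23.4% in nonclassical monocyte-gated and 14.2% in T-gated cells. In the control it was 1.87% in B-gated, 10.2% in NK-gated, 2.16% in nonclassical monocyte-gated and 0.92% in T-gated cells. Summed neutrophil markers in B-gated cells were 4.54, 35.4, 27.9 and 9.46 CPM at 0 h, 12 h, 24 h and 96 h, with 9 of the 10 markers above 0 at 24 h and 6 of 10 in the control. The part of free neutrophil RNA in the B-gated Fkbp5 level was not tested.

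Subsets of T-gated cells were drawn by coreceptor genes after the data had been seen. Cells with Cd4 and without Cd8 genes or Foxp3 had a 24 h ratio of 3.48 (2.27 to 5.48), and cells with Cd8 genes and without Cd4 had 3.55 (3.02 to 4.19). Cells with the cytotoxic genes Ccl5 and Nkg7 had 2.70 (1.82 to 4.09). Cells with Foxp3, the factor of regulatory T cells, had 79.4 CPM at 24 h against 52.7 CPM in the control, a ratio of 1.51 (0.95 to 2.38) from 39 and 43 UMIs. The interval of the Foxp3 subset includes 1, and its control level was above those of the Cd4 (26.5 CPM) and Cd8 (26.9 CPM) subsets. Monocyte-gated cells in neither subset had a ratio of 16.2 (10.9 to 25.3), and over all cells used Fkbp5 stood at 96.6 CPM at 24 h against 18.5 CPM in the control.

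At 24 h no other measured gene followed Fkbp5 in T-, B-, NK- or classical monocyte-gated cells, and Zbtb16 alone followed it in nonclassical monocyte-gated cells. A gene is called higher or lower where its ratio to the control is at least 1.5-fold in that direction and the pair holds at least 50 UMIs. That minimum was met by 35 of the 40 gene and lineage pairs, and not by Zbtb16 in the other 4 lineages or by Per1 in NK-gated cells. Of the 35, 6 were higher and 10 lower at 24 h, and 5 of the 6 higher pairs were Fkbp5 itself. Fkbp5 is the gene that the others are set against. It is the 1 higher gene in each count for T-, B-, NK- and classical monocyte-gated cells, so those counts show no other gene higher. In T-gated cells 1 of 7 measured genes was higher, where 2.8% of all genes were, and 1 was lower (Ddit4), where 8.45% were. In B-gated cells 1 of 7 was higher and 0 were lower, beside 3.8% and 4.97% of all genes. In NK-gated cells 1 of 6 was higher and 1 lower (Sgk1), beside 6.62% and 5.46%. The monocyte gates held most of the lower calls.

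In classical monocyte-gated cells 1 of 7 was higher and 5 were lower (Tsc22d3, Per1, Sgk1, Ddit4 and Txnip), beside 7.69% of all genes higher and 13.2% lower. In nonclassical monocyte-gated cells 2 of 8 were higher (Fkbp5 and Zbtb16) and 3 lower (Per1, Sgk1 and Ddit4), beside 4.93% and 7.93%. The median log2 ratio of the measured members, Fkbp5 included, was -0.35 in T-gated, 0.17 in B-gated and -0.17 in NK-gated cells at 24 h. It was -0.82 in classical and -0.52 in nonclassical monocyte-gated cells. For all genes it was -0.12, -0.02, -0.01, -0.07 and -0.04 in that order. With T-gated cells scaled to the median of all genes, Sgk1 joins Fkbp5 as a higher gene in T-gated cells.

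**Figure D3:**
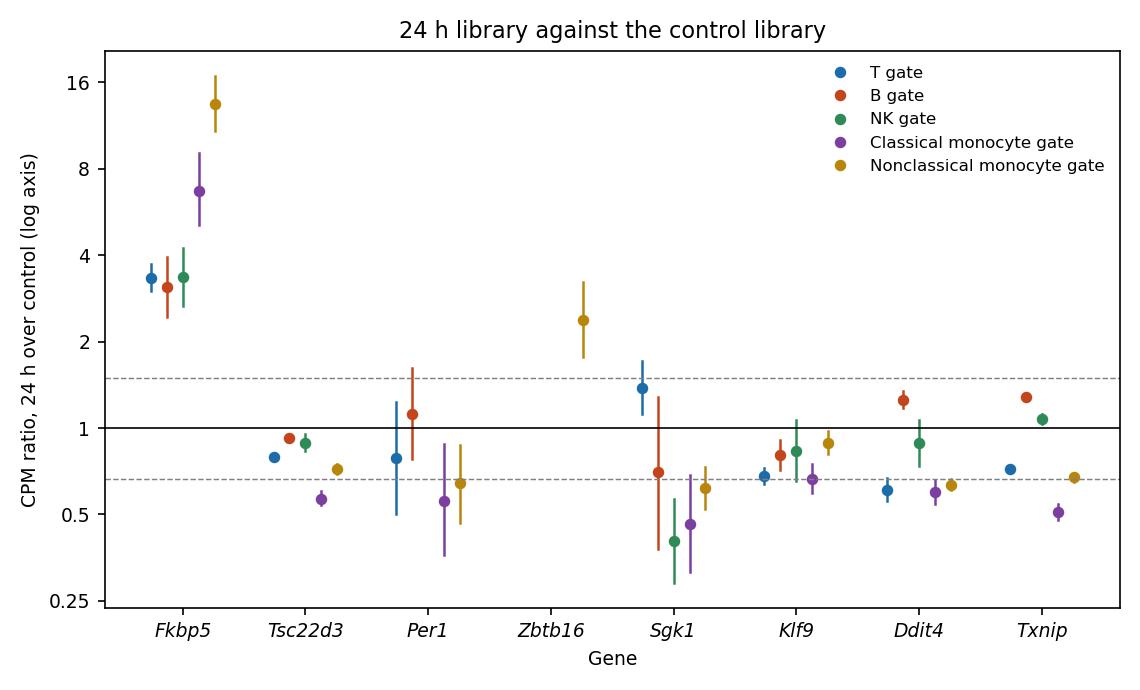
Ratio of CPM in the 24 h library to the control library (vertical log axis) for each of the 8 genes (horizontal axis) in 5 marker-gated lineages. Points are ratios and bars exact 95% intervals for counting error, dashed lines mark 1.5-fold in either direction, and pairs with fewer than 50 UMIs are not drawn. Fkbp5 lies between 3.09 and 13.4, while Tsc22d3 and Klf9 lie below 1 in all 5 lineages.

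**Figure D4:**
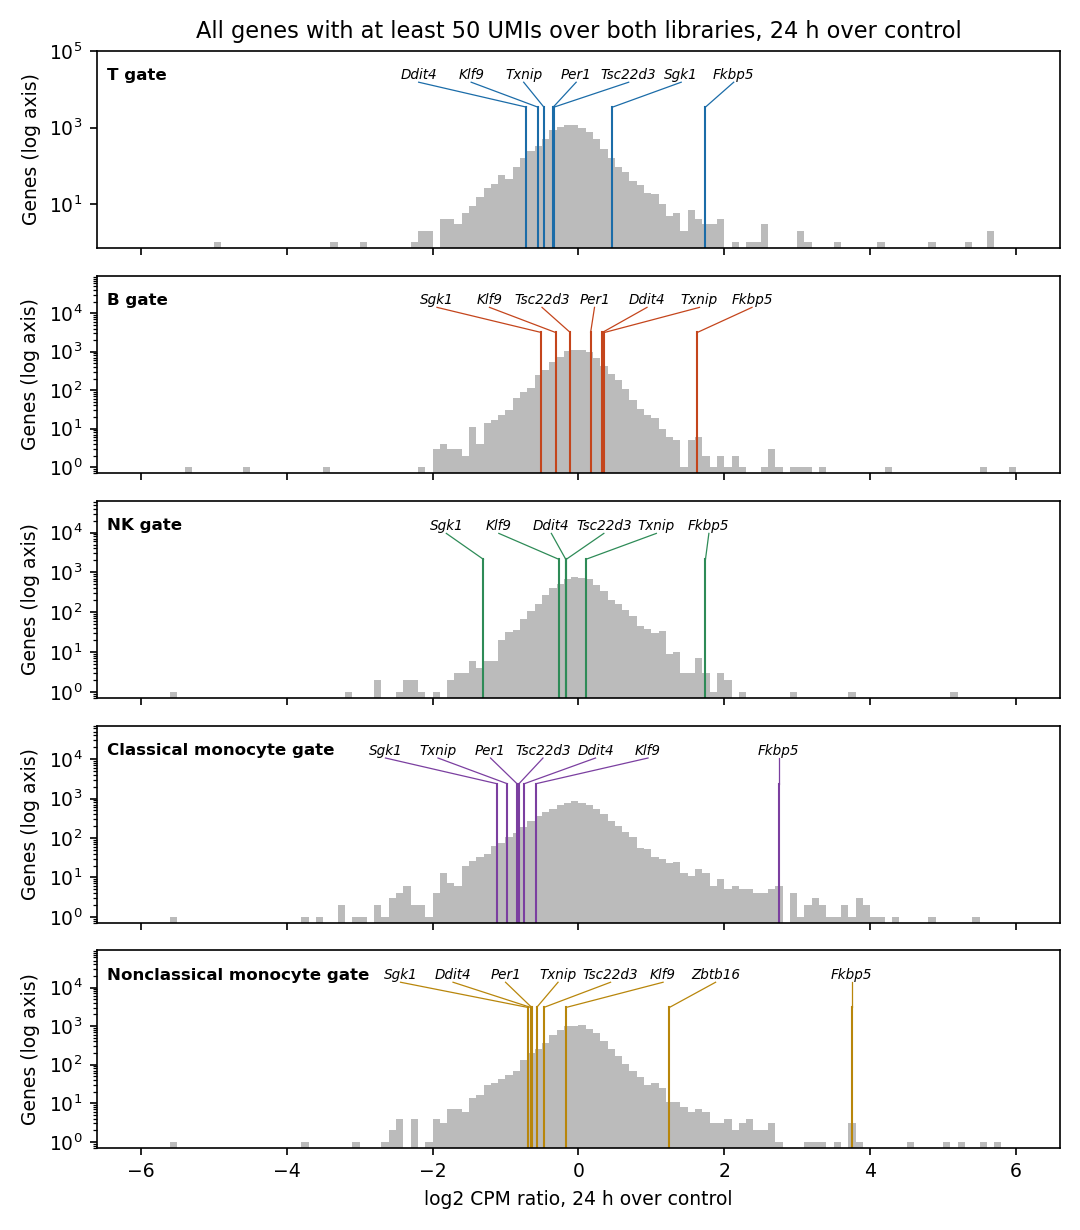
Histograms of the log2 CPM ratio of the 24 h library over the control for all genes with at least 50 UMIs over both libraries (bars, number of genes on a log axis), 1 panel per lineage, with the 8 genes marked where measured. Fkbp5 lies in the upper tail of each panel, and most of the other genes lie within the main body or on its lower side. Farther up lie Zbtb16 in nonclassical monocyte-gated cells (above 99.0% of genes) and Sgk1 in T-gated cells (95.8%). Txnip (89.1%) and Ddit4 (87.4%) in B-gated cells are also on the upper side.

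At 12 h, 5 of 35 measured pairs were higher, all of them Fkbp5, and 13 were lower. In T-gated cells 1 gene was higher (8.88% of all genes) and 3 were lower (Per1, Klf9 and Txnip, with 3.2% of all genes lower). In B-gated cells 1 was higher (6.45%) and Klf9 lower (3.56%). In NK-gated cells 1 was higher (8%) and Sgk1 lower (3.02%). Classical monocyte-gated cells had 1 higher (20.1%) and 5 lower, namely Tsc22d3, Per1, Sgk1, Klf9 and Txnip (10.5%). Nonclassical monocyte-gated cells had 1 higher (6.49%) and 3 lower, namely Per1, Sgk1 and Klf9 (4.1%). Lower calls among the 8 genes were thus more numerous at 12 h than at 24 h, while the Fkbp5 ratio was smaller.

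At 96 h most pairs had returned to within 1.5-fold, with 3 of 35 higher and 3 lower. In T- and B-gated cells none of the 8 genes was called in either direction, beside 2.19% of all genes higher and 4.12% lower in T-gated cells and 2.74% and 3.47% in B-gated cells. In NK-gated cells Fkbp5 was higher (5.65% of all genes) and Sgk1 lower (3.07%). In classical monocyte-gated cells Fkbp5 was higher (3.8%) and Sgk1 and Ddit4 were lower (3.7%). In nonclassical monocyte-gated cells Fkbp5 was higher (3.04%) and no member was lower (2.94%). The 3 comparisons share the control library, so they are not independent of each other.

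**Figure D5:**
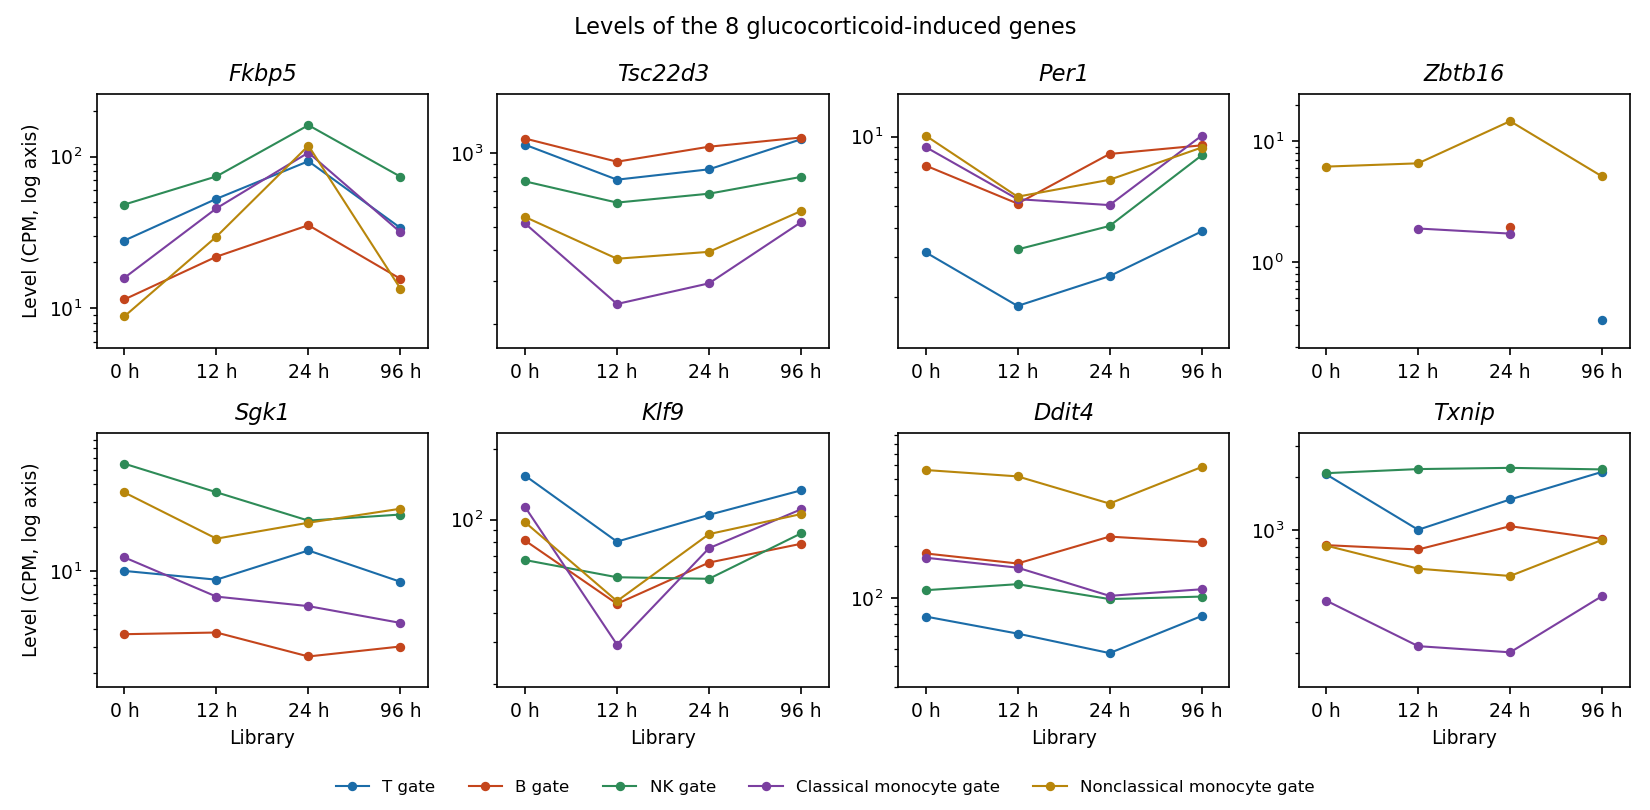
Level in CPM (vertical log axis, a scale of its own in each panel) of the 8 genes by library (horizontal axis, 1 library per time) in 5 marker-gated lineages. Sums with fewer than 10 UMIs are not drawn. Fkbp5 peaks at 24 h in all 5 lineages, Tsc22d3 is lowest at 12 h in all 5, and Zbtb16 has a full line in nonclassical monocyte-gated cells alone.

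Tsc22d3, the gene for GILZ, went the other way from Fkbp5 at 12 h and 24 h and was back at the control level at 96 h. It stood at 1082, 778, 858 and 1138 CPM in T-gated cells at 0 h, 12 h, 24 h and 96 h, and at 1147, 922, 1061 and 1158 CPM in B-gated cells. NK-gated cells held 766, 627, 682 and 799 CPM. Each lineage had its lowest value at 12 h and its highest at 96 h. Classical monocyte-gated cells held 515, 241, 293 and 521 CPM, and nonclassical monocyte-gated cells 548, 369, 394 and 579 CPM. The 24 h ratio was 0.568 in classical monocyte-gated cells (0.538 to 0.601), the only lineage past 1.5-fold, and 0.720 in nonclassical monocyte-gated cells (0.692 to 0.749). The lymphoid ratios were 0.793 in T-gated, 0.926 in B-gated and 0.890 in NK-gated cells. They lay above those of 23.4%, 37.6% and 30.3% of all genes, so within the main body. In classical and nonclassical monocyte-gated cells the shares of genes below were 6.51% and 11.4%. All 5 intervals lay below 1 at 12 h and at 24 h. At 96 h the ratios ran from 1.01 to 1.06.

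Klf9, a Krüppel-like factor known as an early target of the receptor, was lowest at 12 h in every lineage except NK, with values between those of 12 h and the control at 24 h. It stood at 154, 80.6, 105 and 133 CPM in T-gated cells at the 4 times, and at 113, 29.4, 75.6 and 111 CPM in classical monocyte-gated cells. Nonclassical monocyte-gated cells held 97.5, 45, 86.8 and 106 CPM. The 12 h ratio was 0.259 in classical monocyte-gated cells (0.220 to 0.304), the smallest of any of the 8 genes at that time among the pairs measured. At 24 h it was 0.667 there, on the edge of the 1.5-fold call (0.593 to 0.751), and from 0.680 to 0.890 in the other 4 lineages. NK-gated cells were the exception, with intervals that include 1 at 12 h (0.671 to 1.07) and at 24 h (0.652 to 1.06). Their 12 h ratio was 0.844, and its interval lay above those of the other 4 lineages. The nearest was B-gated cells, at 0.537 (0.475 to 0.607).

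Per1, which encodes a repressor in the circadian clock, was a low gene with fewer counts behind it. It stood at 10.1, 5.47, 6.48 and 8.95 CPM in nonclassical monocyte-gated cells and at 9.01, 5.34, 5.03 and 10.1 CPM in classical monocyte-gated cells, in the order of the 4 times. T-gated cells held 3.13, 1.83, 2.47 and 3.86 CPM, and B-gated cells 7.48, 5.10, 8.40 and 9.15 CPM. At 24 h the ratio was 0.642 in nonclassical (0.468 to 0.876) and 0.558 in classical monocyte-gated cells (0.362 to 0.883). In T- and B-gated cells the 24 h intervals include 1. NK-gated cells held 7 UMIs in the control and 11 at 24 h, too few to be measured.

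Zbtb16, which encodes the factor PLZF, was measured in nonclassical monocyte-gated cells alone and was higher there at 24 h together with Fkbp5. Its levels were 6.14, 6.53, 14.6 and 5.09 CPM at 0 h, 12 h, 24 h and 96 h. The 24 h ratio was 2.38 (1.76 to 3.24, from 162 UMIs at 24 h and 62 in the control), the 87th largest of 8462 genes. At 12 h, where Fkbp5 stood at 3.36, the Zbtb16 ratio was 1.06 (0.704 to 1.6). The share of thinned cells with a Zbtb16 UMI was 2.51% at 24 h against 0.98% in the control. In cells with 1000 genes or more and no more than 5% mitochondrial UMIs the 24 h ratio was 1.32, under the call. Elsewhere the counts were small. B-gated cells held 15 UMIs at 24 h and 0 in the control, too few to be measured, with an interval from 3.78 upward without an upper end. Classical monocyte-gated cells held 29 and 2, a ratio of 2.76 (0.699 to 23.9) that a minimum of 20 UMIs would call higher. T-gated cells held 4 UMIs at 24 h and 3 in the control, and NK-gated cells 2 and 1.

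Sgk1, the kinase gene with the full element in 1 of its 6 windows, was lower in 3 of 5 lineages at 24 h. In NK-gated cells, which held the highest level in the control, it stood at 54.8, 34.9, 22.2 and 24.5 CPM at the 4 times. In nonclassical monocyte-gated cells it stood at 34.8, 16.7, 21.5 and 26.9 CPM, and in classical monocyte-gated cells at 12.4, 6.67, 5.74 and 4.40 CPM. In these 3 lineages every pancreatitis library lay below the control. The 24 h ratio was 0.406 in NK-gated (0.290 to 0.564), 0.462 in classical (0.316 to 0.685) and 0.619 in nonclassical monocyte-gated cells (0.523 to 0.732). In T-gated cells it was 1.38 (1.12 to 1.71, 13.9 CPM at 24 h against 10.0 CPM in the control), an interval above 1 but short of 1.5-fold. In B-gated cells, with 20 UMIs at 24 h and 30 in the control, the interval was 0.378 to 1.28. NK-gated and classical monocyte-gated cells were still lower at 96 h, at 0.447 (0.326 to 0.609) and 0.354 (0.204 to 0.602).

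Ddit4, the mTORC1 inhibitor, was lower at 24 h in T-gated and both monocyte-gated lineages and not in B- or NK-gated cells. It was highest in nonclassical monocyte-gated cells, at 561, 515, 357 and 584 CPM over the 4 times, with a 24 h ratio of 0.636 (0.610 to 0.662). T-gated cells held 77.6, 61.7, 47.4 and 78.1 CPM, a 24 h ratio of 0.610 (0.556 to 0.670). Both courses dipped at 24 h and were back by 96 h. Classical monocyte-gated cells held 172, 150, 103 and 112 CPM, with a ratio of 0.598 at 24 h (0.543 to 0.659) and 0.653 at 96 h. In B-gated cells the levels were 182, 159, 228 and 212 CPM, and the 24 h ratio was 1.26 (1.17 to 1.35). In NK-gated cells the 24 h interval includes 1 (0.736 to 1.07).

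Txnip, the thioredoxin-binding protein, was lower in classical monocyte-gated cells at 12 h and 24 h and in T-gated cells at 12 h, and stayed within 1.5-fold of the control in every other pair. In T-gated cells it stood at 2070, 1004, 1492 and 2138 CPM at the 4 times, and in NK-gated cells at 2102, 2217, 2253 and 2207 CPM. The T-gated level at 12 h was 0.485 of the control (0.475 to 0.495), while NK-gated cells stayed between 1.05 and 1.07 at all 3 times. At 24 h the ratio was 0.721 in T-gated (0.708 to 0.733), 0.509 in classical (0.477 to 0.543) and 0.673 in nonclassical monocyte-gated cells (0.651 to 0.695). It was 1.28 in B-gated cells (1.24 to 1.32). Of these, classical monocyte-gated cells alone passed 1.5-fold. At 96 h all 5 ratios lay between 1.03 and 1.08.

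Likeness to Fkbp5 was measured over the 20 sums of 5 lineages by 4 libraries, as the Pearson r of log2(CPM + 10) centred within each lineage, among 9221 genes. The sums share libraries, depth and free RNA, so r is a description. The 5 most alike were Mcee (r = 0.92), Med9 (0.90), Cib1 (0.90), Cd63 (0.88) and Net1 (0.87). Mcee encodes an enzyme of propionate breakdown, Med9 a Mediator subunit, Cib1 a calcium- and integrin-binding protein and Cd63 a tetraspanin of lysosomes. The 24 h ratios of Cib1 ran from 1.17 in T-gated to 1.68 in nonclassical monocyte-gated cells. Cd63 stood at 18.2, 29.3, 90.8 and 25.2 CPM in nonclassical monocyte-gated cells over the 4 times, and at 4.93 CPM in T-gated cells at 24 h against 4.95 CPM in the control. In B-gated cells its 24 h ratio was 5.01 (2.30 to 12.4), from 38 UMIs at 24 h and 8 in the control. Among the 8 genes, Zbtb16 alone had a positive r (0.73, place 96 of 9221). The others ran from -0.35 for Klf9 through Sgk1 (-0.47), Per1 (-0.48), Txnip (-0.56) and Tsc22d3 (-0.63) to -0.72 for Ddit4. Zbtb16 stood at no more than 1.94 CPM in every lineage but nonclassical monocyte-gated cells. Its r therefore rests mainly on the nonclassical sums, repeats its 24 h ratio there and does not describe likeness across lineages.

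Other genes known to be raised by glucocorticoids, 24 of 27 listed names being present, moved in both directions at 24 h. Of those measured, 5 of 17 were higher and 6 lower in T-gated cells, 2 and 1 of 14 in B-gated, 0 and 3 of 10 in NK-gated, 6 and 7 of 19 in classical and 4 and 3 of 19 in nonclassical monocyte-gated cells. Their median log2 ratios ran from -0.26 in T-gated to 0.06 in B-gated cells, beside -0.12 and -0.02 for all genes there. Beside these counts, 2.8% of all genes were higher and 8.45% lower in T-gated cells and 3.8% and 4.97% in B-gated cells. The shares were 6.62% and 5.46% in NK-gated, 7.69% and 13.2% in classical and 4.93% and 7.93% in nonclassical monocyte-gated cells. The metallothionein listed as Mt2A had the largest ratio in 4 lineages, at 17.8-fold in T-gated (10.7 to 31.5), 15.7-fold in classical and 3.36-fold in nonclassical monocyte-gated cells and 7.61-fold in B-gated cells. Like Fkbp5, it was lower at 12 h than at 24 h, at 7.13-fold in T-gated and 3.73-fold in classical monocyte-gated cells. Metallothioneins are also raised by zinc and by cytokines. The smallest ratios belonged to Irs2, an insulin receptor substrate, in T-gated (0.49) and B-gated cells (0.62), to Anxa1 in NK-gated (0.31), to Il1r2 in classical (0.45) and to Cxcr4 in nonclassical monocyte-gated cells (0.53). Il1r2, the decoy receptor of interleukin-1 that neutrophils also express, had stood at 18.4-fold (12.7 to 27.6) in classical monocyte-gated cells at 12 h. It stood at 7.04-fold in nonclassical monocyte-gated cells and, with 77 UMIs at 12 h and 1 in the control, at 64.1-fold (11.2 to 2565) in B-gated cells at the same time, when summed neutrophil markers in B-gated cells were 35.4 CPM against 4.54 CPM in the control. The part of neutrophil RNA in these values was not tested.

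The receptor gene Nr3c1 is not among the gene names and was not analysed here. Of 6 measured genes for receptor chaperones and hormone metabolism, 0 were higher and 1 lower in T-gated cells at 24 h, 0 and 1 in NK-gated, 1 and 2 in classical and 0 and 0 in nonclassical monocyte-gated cells, and 0 of 5 were called in B-gated cells. Their median log2 ratios ran from -0.32 in nonclassical monocyte-gated to -0.03 in B-gated cells. The shares of all genes given above for the other glucocorticoid-raised genes at 24 h stand beside these counts too. Fkbp4, the co-chaperone paralogous to Fkbp5, went the other way in classical monocyte-gated cells, at 32.9 CPM at 24 h against 64.0 CPM in the control (ratio 0.51). Hsd11b1, whose enzyme regenerates active hormone inside cells, was at 62.2 CPM at 24 h against 40.7 CPM in the control there (1.53) and at 0.62 of the control in both T- and NK-gated cells. In nonclassical monocyte-gated cells, where Fkbp5 changed most, ratios ran from 0.71 (Stip1) to 1.08 (Hspa8).

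More clock genes were called lower than higher at 24 h in each lineage, and all genes leaned the same way in every lineage except NK. The shares of all genes lower and higher were 8.45% and 2.8% in T-gated, 4.97% and 3.8% in B-gated, 5.46% and 6.62% in NK-gated, 13.2% and 7.69% in classical and 7.93% and 4.93% in nonclassical monocyte-gated cells, and these shares stand beside every list count at 24 h here. Of those measured, 0 were higher and 4 of 14 lower in T-gated cells, 1 and 4 of 11 in B-gated, 0 and 2 of 10 in NK-gated, 0 and 4 of 11 in classical and 0 and 7 of 13 in nonclassical monocyte-gated cells. Their median log2 ratio was -0.69 in nonclassical monocyte-gated and -0.43 in T-gated cells, and -0.39, -0.28 and -0.26 in NK-gated, classical monocyte-gated and B-gated cells. Ciart, a repressor in the clock, stood at 0.72 CPM at 24 h against 4.36 CPM in the control in nonclassical monocyte-gated cells (ratio 0.17) and at 0.37 of the control in T-gated cells. Per3, a paralog of Per1, stood at 0.33 of the control in classical monocyte-gated cells, and Arntl at 0.44 in NK-gated and 0.56 in B-gated cells. Tef had the largest ratio in B-gated cells (1.94), Bhlhe40 in classical monocyte-gated cells (1.30) and Nfil3 in T-gated (1.12), NK-gated (1.14) and nonclassical monocyte-gated cells (1.08).

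Immediate early genes, which respond within minutes to outside signals, were mixed at 24 h. The counts were 4 higher and 6 lower of 15 in T-gated, 1 and 2 of 14 in B-gated, 2 and 1 of 12 in NK-gated, 3 and 5 of 15 in classical and 0 and 3 of 16 in nonclassical monocyte-gated cells. Their median log2 ratios ran from -0.30 in classical monocyte-gated to 0.07 in B-gated cells. Fos stood at 3.04-fold in T-gated and Jun at 2.62-fold in classical monocyte-gated cells, and Egr1 stood at 0.27 of the control in classical monocyte-gated cells. At 12 h none of this list was higher in any of the 5 lineages, and 12 of 15 were lower in T-gated and 13 of 16 in nonclassical monocyte-gated cells. Of all genes at 12 h, 8.88% were higher and 3.2% lower in T-gated and 6.49% and 4.1% in nonclassical monocyte-gated cells. Genes that share FoxO or MondoA regulation with Txnip and Ddit4 had 1 higher and 3 lower of 13 in T-gated, 0 and 1 of 11 in B-gated, 1 and 1 of 10 in NK-gated, 0 and 6 of 10 in classical and 0 and 4 of 12 in nonclassical monocyte-gated cells at 24 h. Their medians ran from -0.69 in classical monocyte-gated to -0.19 in NK-gated cells. Arrdc4, an arrestin-like relative of Txnip, stood at 0.37 of the control in classical monocyte-gated cells, and Pik3ip1, an inhibitor of PI3 kinase, at 0.36 in nonclassical monocyte-gated cells.

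Counts for inflammatory genes that glucocorticoids are known to lower differed between the times in monocyte-gated cells. The genes measured also differed, with 4 at 12 h, 6 at 24 h and 3 at 96 h in classical monocyte-gated cells. A gene can meet the minimum of 50 UMIs over the pair through a high level or a deep library at 1 time. The counts and medians below therefore do not cover a fixed set of genes. In classical monocyte-gated cells 4 of 6 measured were higher and 0 lower at 24 h, beside 7.69% of all genes higher and 13.2% lower, and in nonclassical monocyte-gated cells 2 of 6 and 0, beside 4.93% and 7.93%. At 12 h in nonclassical monocyte-gated cells 0 of 5 were higher and 3 lower (6.49% and 4.1% of all genes), with a median log2 ratio of -0.65. In classical monocyte-gated cells 2 of 4 were higher and 0 lower at 12 h (20.1% and 10.5%), and 0 of 3 were higher and 2 lower at 96 h (3.8% and 3.7%), with a median of -0.72 at 96 h. The neutrophil-attracting chemokine gene Cxcl2 stood at 285 CPM at 24 h against 30.1 CPM in the control in classical (9.45-fold) and at 65.7 against 21.2 CPM in nonclassical monocyte-gated cells (3.10-fold). At 24 h in B-gated cells 2 of 4 were higher and 0 lower, in NK-gated cells 1 and 0 of 3 and in T-gated cells 1 and 1 of 3. Il1b had the largest ratio in T-gated (2.59) and NK-gated cells (2.68), at 24 h levels of 8.93 and 20.4 CPM, beside 628 CPM in classical monocyte-gated cells. At 24 h the median log2 ratios were 1.46 in classical and 0.42 in nonclassical monocyte-gated cells, and 1.44, -0.02 and -0.57 in B-, NK- and T-gated cells. The part of free RNA in these lymphoid values was not tested.

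Markers of other cells that blood could hold were summed over all cells used. Platelet markers (5 of 5 above 0) summed to 18.3, 61.0, 63.6 and 21.4 CPM at 0 h, 12 h, 24 h and 96 h, so they were highest in the same 2 libraries as the Fkbp5 levels. Erythroid markers (4 of 7 listed names present, all above 0) summed to 57.1, 109, 29.0 and 68.2 CPM, plasma cell markers to 91.1, 103, 61.2 and 64.6 CPM and endothelial markers (3 of 5 names present) to 5.08, 4.35, 2.99 and 6.08 CPM. Acinar markers stayed under 1 CPM in every library, with 2 of the 4 present names above 0 at 24 h. The part of platelet RNA in the Fkbp5 levels was not tested.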

How the data were processed

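UMI counts per gene and cell were deposited by the authors as 1 matrix a library, without normalization. Cell Ranger, Seurat and build mm10 are named in the submitters' processing notes, with no version given. The deposited cells held at least 301 genes and under 15% mitochondrial UMIs. Cells under 200 genes or over 10% mitochondrial UMIs were dropped, and doublets were called with Scrublet in scanpy 1.11.5 (4.07% to 5.49% of a library) and removed, which left 11410 cells at 0 h, 10464 at 12 h, 10908 at 24 h and 12929 at 96 h.

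Lineages were gated per cell by distinct marker genes, and 12.29% to 14.59% of cells fell in no lineage. UMIs were summed per library and lineage and scaled to CPM. Levels have exact Poisson intervals, ratios exact conditional binomial intervals and shares Clopper-Pearson intervals, all at 95%, and in the ratios of all genes a library at 0 UMIs was set to 3 counts. In the background of all genes the same 50-UMI minimum and 1.5-fold call apply. With 1 library per group no test was fitted. The ratio code was tested on simulated counts. The named genes are the 8 members, the 5 genes most like Fkbp5 (at least 200 UMIs over the sums), and the largest and smallest ratios in each of 6 gene lists. Named outside that rule, after their values were seen, are Il1r2 and Mt2A at 12 h, Il1b in classical monocyte-gated cells, and Lyz2, Cd3e and S100a8 for free RNA. The members and lists were chosen with earlier results of these data known. Alternatives were another scaling, other cell filters, doublets kept, 3 other gates, a mean over cells, and other fold and UMI minimums. Software was python 3.11.15, numpy 2.4.6, scipy 1.17.1, pandas 2.3.3, anndata 0.12.19, scikit-learn 1.9.0 and matplotlib 3.10.9.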

Additional observations from a re-analysis of the deposited data

Results flagged for a closer look

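For 3 of the 8 genes the 24 h ratio to the control lay on opposite sides of 1 in different lineages, with intervals for counting error that exclude 1 on each side. The differences between lineages were not tested, since each lineage has 1 library per time. Sgk1 stood at 1.38 in T-gated cells and at 0.406 in NK-gated, 0.462 in classical and 0.619 in nonclassical monocyte-gated cells. Its T-gated value differed between subsets. T-gated cells with Cd8 genes and without Cd4 had a ratio of 0.911 (0.635 to 1.30). Those with Cd4 and without Cd8 genes or Foxp3 had 4.02 (1.31 to 16.4), from 17 UMIs at 24 h and 4 in the control. Ddit4 stood at 1.26 in B-gated cells and at 0.610 in T-gated, 0.598 in classical and 0.636 in nonclassical monocyte-gated cells. Txnip stood at 1.28 in B-gated and 1.07 in NK-gated cells and at 0.721 in T-gated, 0.509 in classical and 0.673 in nonclassical monocyte-gated cells.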

How the results depend on the processing

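No called ratio changed direction under any setting tried, but sizes moved with cell quality. In cells with 1000 genes or more and no more than 5% mitochondrial UMIs, 26 member ratios fell outside their main counting interval and 7 stayed inside. Within cells of 5% to 7.5% mitochondrial UMIs, 22 fell outside and 74 stayed inside. The other filters, gates and scalings put from 0 (no cell filter) to 14 (median-of-ratios scaling) outside. The 24 h Fkbp5 ratio stayed at 2.75 or more in every lineage it could be computed in. In cells with 1000 genes or more and no more than 5% mitochondrial UMIs, only T- and nonclassical monocyte-gated cells kept 50 control cells: Fkbp5 was 5.56 in T-gated (50 control cells) and 12.2 in nonclassical monocyte-gated cells, where 1 gene was then higher and 1 lower. Within cells of 5% to 7.5% mitochondrial UMIs, a setting chosen after seeing the data, Fkbp5 was 2.98 in T-gated, 2.75 in B-gated, 2.86 in NK-gated, 5.72 in classical and 11.6 in nonclassical monocyte-gated cells. Median-of-ratios scaling gave 2 higher genes in T-gated cells, and no cell filter gave 1 higher pair at 96 h. At 2-fold, the lower genes at 24 h were 0 in T-gated, 1 in classical and 0 in nonclassical monocyte-gated cells, and the pairs were 2 higher and 5 lower at 12 h, 2 lower at 24 h and 1 higher at 96 h. A minimum of 20 UMIs gave 2 higher genes in classical monocyte-gated cells. A minimum of 200 UMIs gave 0 lower in NK-gated and 3 lower in classical monocyte-gated cells, 6 lower pairs at 24 h and 1 lower pair at 96 h. The causes were not tested. At this depth 5 of the 40 pairs had too few UMIs to be measured, all of Zbtb16 or Per1. No paired analysis was possible because each group has 1 library.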
